A study of Mus musculus with 38 samples.

Results

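Npas4 and 9 other early response regulators (Ier2, Ier5, Btg2, Klf4, Gadd45b, Gadd45g, Trib1, Nfil3 and Per1) were followed through 38 ribosome footprint libraries of mouse cortical neurons. The 10 genes were listed by name, with earlier results of these data known, and are 10 of the 22443 genes whose coding sequence (CDS) was counted. Each gene was represented by its longest coding transcript, and its level is given as CPM, the footprints in its CDS per 1000000 CDS footprints of the library. Footprints in the 5′ untranslated region (5′ UTR) were counted separately. All 10 genes passed the filter on low counts in every comparison below.

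Early response genes are switched on within minutes of a stimulus without a need for newly made protein, and their mRNAs and proteins are usually short-lived. In neurons they follow calcium entry, and many of their products are transcription factors or regulators that set the next wave of gene expression. The genes described here act at several levels: Npas4, Klf4 and Nfil3 are transcription factors, Ier2 and Ier5 are nuclear regulators, Btg2 promotes mRNA deadenylation and restrains proliferation, Gadd45b and Gadd45g are stress-responsive adaptors linked to kinase signalling and DNA demethylation, Trib1 is a pseudokinase that directs substrates to the COP1 ubiquitin ligase, and Per1 is a core repressor of the circadian clock.

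The neurons were primary cultures from CD-1 mouse embryos that carried a doxycycline-inducible lentivirus for the biotin ligase TurboID. The ligase was either linked to elements of PSD95, a postsynaptic scaffold (TurboID-PSD95), or carried no localization signal (Pan-TurboID). Ribosomes were sequenced before (input) and after (pulldown) capture of biotinylated material on streptavidin. In the KCl experiment (24 libraries, 8 groups of 3), resting neurons and neurons depolarized with 55 mM KCl for 1 h were sampled as input and pulldown with both ligases. Depolarization was preceded by 2 h of silencing with tetrodotoxin and DL-AP5 and followed by 30 min of recovery, with the same blockers per the study's methods. The labels give silencing for the depolarized libraries, those with knockdown included, and for no resting one. KCl and silencing therefore cannot be told apart in the KCl responses below. In the DHPG experiment (6 libraries, 2 groups of 3), TurboID-PSD95 neurons were silenced in the same way and were given DHPG, which activates metabotropic glutamate receptors of group I, at 100 µM for 10 min. In the knockdown experiment (8 libraries, 4 groups of 2), TurboID-PSD95 neurons received 20 nM siRNA against eIF4G2, a translation initiation factor, for 72 h and were resting or depolarized. Per the labels all cultures received cycloheximide for 2 min and biotin for 30 min, whereas the study's methods give a shorter biotin step after DHPG. The labels name TurboID-PSD95 for all DHPG and knockdown libraries, but their free-text descriptions place the DHPG inputs and all knockdown libraries, pulldowns included, in the cytosol. The ligase named was used for the groups, so what the knockdown pulldowns captured rests on that label. A footprint count reflects both the amount of an mRNA and the number of ribosomes on each copy, and these cannot be told apart from footprints alone. The libraries of the DHPG and knockdown experiments came from other processing runs than the KCl experiment, and a non-targeting siRNA was not analysed here, so the DHPG and knockdown effects against the KCl experiment cannot be told apart from the run.

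The libraries held 2047169 to 14636018 CDS footprints. Summed neuron markers (10 genes) ranged from 4994 to 10664 CPM. Astrocyte markers (8 genes) ranged from 226 to 1511 CPM, oligodendrocyte markers (9 genes) from 31.9 to 575 CPM, endothelial and fibroblast markers (10 genes) from 31.0 to 480 CPM and microglia markers (8 genes) from 0 to 25.7 CPM, with 0 to 8 of the 8 microglia genes at 0 in a library. In the KCl inputs, where 15.4% of all genes changed, 3 of the 10 neuron markers fell (Rbfox3, Neurod6 and Tubb3) and no gene of the other marker lists passed the test. In TurboID-PSD95 inputs alone summed neuron markers fell without overlap (8233 to 9098 CPM at rest, 6929 to 8112 after KCl). Summed endothelial and fibroblast markers did too (380 to 480 and 124 to 332 CPM). In Pan-TurboID inputs both lists overlapped. Their part in the KCl responses was not tested. Eif4g2 footprints were lower in knockdown than in other TurboID-PSD95 neurons (log2 difference −0.98 in resting inputs and −0.90 in depolarized inputs, edgeR FDR 0.0038 and 0.0064).

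After silencing and depolarization 8 of the 10 genes were higher in inputs than at rest, whereas Nfil3 and Per1 did not pass the test. Across all genes tested, 15.4% changed in inputs and 6.33% were higher. The 10 genes had a median log2 change of 2.26, against −0.01 over all 13003 genes tested.

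**Figure D1:**
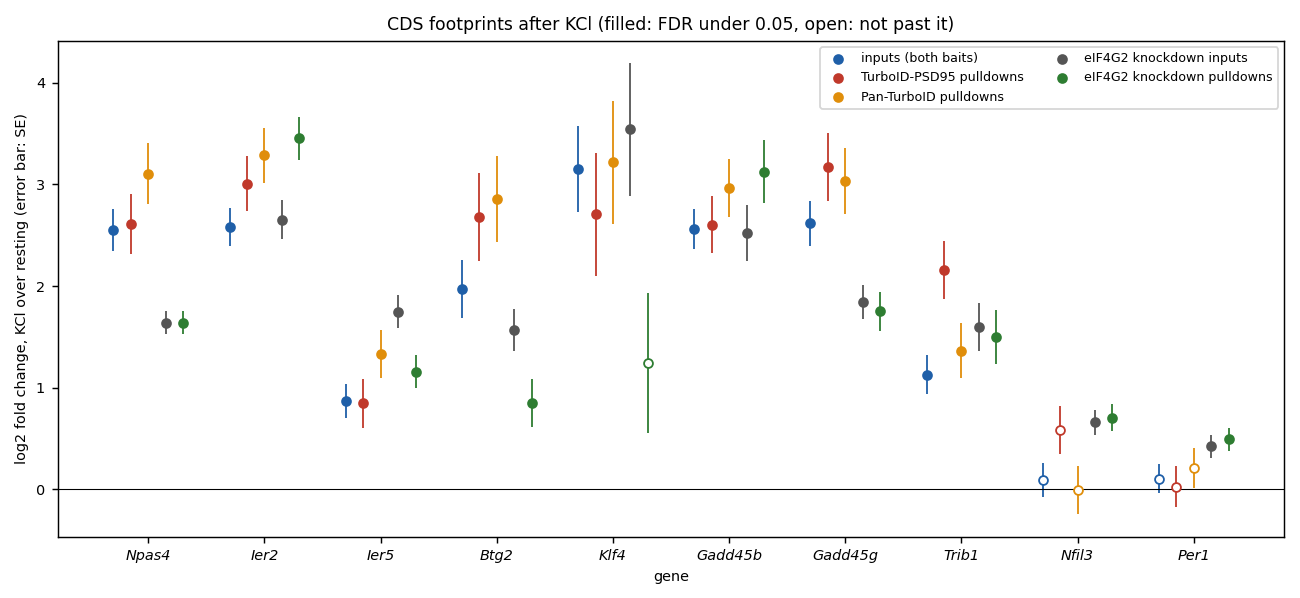
KCl response of the 10 genes as log2 change of CDS footprints, depolarized over resting, in inputs, TurboID-PSD95 pulldowns and Pan-TurboID pulldowns and in inputs and pulldowns of the knockdown experiment; points are edgeR estimates, bars are standard errors, and open points did not pass the test. Npas4 (2.55), Ier2 (2.58), Gadd45b (2.56), Gadd45g (2.62) and Klf4 (3.15) are the 5 highest in inputs of the KCl experiment, and Nfil3 (0.09) and Per1 (0.10) lie near 0 there.

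Npas4, a neuron-enriched bHLH-PAS transcription factor that responds to calcium entry, had 47.6, 57.7 and 55.2 CPM in the resting Pan-TurboID inputs (replicates 1 to 3) and 64.2, 62.1 and 75.7 CPM in the resting TurboID-PSD95 inputs. After KCl it had 442, 363 and 338 CPM with Pan-TurboID and 202, 329 and 397 CPM with TurboID-PSD95. Every depolarized input lay above every resting input, and the lowest depolarized value was that of the TurboID-PSD95 input of replicate 1. The increase was 2.55 ± 0.21 on the log2 scale (SE, 12 libraries, edgeR FDR 1.5e-09). In the TurboID-PSD95 pulldowns Npas4 went from 42.0, 66.2 and 78.6 CPM to 228, 375 and 517 CPM (log2 change 2.61 ± 0.30, FDR 2.0e-06). In the Pan-TurboID pulldowns it went from 42.5, 46.5 and 72.5 CPM to 487, 393 and 462 CPM (3.11 ± 0.30, FDR 1.1e-07). The resting and depolarized pulldowns did not overlap with either ligase.

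Ier2, a nuclear regulator without a known DNA-binding domain, had 30.6 to 45.5 CPM in the 6 resting inputs (median 33.9) and 162 to 281 CPM in the 6 depolarized inputs (median 202). It had the lowest FDR of the 10 genes (log2 change 2.58 ± 0.19, edgeR FDR 2.2e-10). Its relative Ier5, which acts with heat shock factor, had 47.4 to 58.8 CPM at rest (median 50.1) and 65.0 to 101 CPM after KCl (median 96.9). The Ier5 groups did not overlap, but its change was the smallest of the 8 increases (0.87 ± 0.17, FDR 0.00060), and it missed the threshold without replicate 3 (FDR 0.052). Of the other members of the IER family, 2 were tested, and Ier5l rose (1.18 ± 0.20, FDR 0.00017), where 15.4% of all genes changed and 6.33% were higher.

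Klf4, a zinc finger transcription factor, was close to the floor of the assay at rest, with 0.955 to 4.18 CPM in inputs (median 1.57), and had 3.80 to 28.7 CPM after KCl (median 16.8). Its groups overlapped, since the depolarized Pan-TurboID input of replicate 1 (3.80 CPM) lay below the resting Pan-TurboID input of replicate 2 (4.18 CPM). Its log2 change of 3.15 ± 0.42 passed the test (FDR 6.6e-06). Of 13 other KLF genes, 1 rose, Klf10 (1.22 ± 0.26, FDR 0.0022), and none fell. That is near the share of all genes, of which 15.4% changed in inputs and 6.33% were higher, so the family did not stand out.

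Btg2, which recruits the CCR4-NOT deadenylase, had 30.9 to 48.6 CPM in resting inputs (median 42.7) and 90.2 to 212 CPM in depolarized inputs (median 157). The groups did not overlap, and both depolarized inputs of replicate 1 (90.2 and 113 CPM) were below the other 4. The log2 change was 1.97 ± 0.29 (FDR 4.2e-05). Among 14 other BTG/TOB and CCR4-NOT genes, Btg1 rose (1.36 ± 0.30, FDR 0.0028) and the CCR4-NOT subunit gene Cnot3 fell (−0.68 ± 0.21, FDR 0.028). That is near the 15.4% of all genes that changed in inputs, so the list did not stand out.

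The GADD45 proteins activate the kinase MAP3K4. Gadd45b had 6.83 to 11.7 CPM in resting inputs (median 9.54) and 34.2 to 81.9 CPM in depolarized inputs (median 49.3), a log2 change of 2.56 ± 0.20 (FDR 6.5e-10). Gadd45g had 27.3 to 37.2 CPM at rest (median 32.03) and 156 to 255 CPM after KCl (median 181), a log2 change of 2.62 ± 0.23 (FDR 4.7e-09). Neither gene's groups overlapped. Of the 4 genes listed with them, Gadd45gip1, whose product binds GADD45 proteins, rose (0.56 ± 0.16, FDR 0.020). For comparison, 15.4% of all genes changed in inputs and 6.33% were higher.

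Trib1 had 30.9 to 53.5 CPM in resting inputs (median 40.3) and 68.8 to 99.99 CPM in depolarized inputs (median 87.4). The groups did not overlap, and the log2 change was 1.13 ± 0.19 (FDR 0.00016). Of 6 genes listed with it, Trib3 (1.68 ± 0.34, FDR 0.0010) and Cebpb, whose family includes substrates of the Tribbles and COP1 pathway (1.48 ± 0.23, FDR 7.0e-05), rose. Over all genes 6.33% were higher in inputs and 15.4% changed.

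Nfil3, a bZIP repressor that acts on D-box sites in clock gene promoters, had 168 to 207 CPM in resting inputs (median 183) and 143 to 282 CPM in depolarized inputs (median 193). Per1 had 152 to 201 CPM at rest (median 170.5) and 154 to 207 CPM after KCl (median 183). Both genes' groups overlapped. Their log2 changes were 0.09 ± 0.17 and 0.10 ± 0.14 (FDR 0.78 and 0.69), and the estimate for Per1 changed sign without replicate 1 (−0.06). Among 16 other clock genes, the increases with the smallest p values were those of Nr1d1 (1.32 ± 0.18), Ciart (1.77 ± 0.51) and Bhlhe40 (0.97 ± 0.31). The decreases with the smallest p values were those of Rorb (−1.05 ± 0.24), Nr1d2 (−1.41 ± 0.36) and Npas2 (−0.93 ± 0.28). Naming was capped in each direction, so further genes of this list may have passed. Over all genes 15.4% changed in inputs and 6.33% were higher.

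Counted by groups that did not overlap, 7 of the 10 genes had every depolarized input above every resting input, against 3.21% of all genes. In TurboID-PSD95 pulldowns and in Pan-TurboID pulldowns 8 of the 10 did so, against 8.19% and 9.35% of all genes. Klf4 separated in both kinds of pulldown but not in inputs, where both ligases were pooled (6 libraries against 6, not 3 against 3). In TurboID-PSD95 inputs alone Klf4 did separate (0.955 to 1.61 CPM at rest, 5.97 to 28.7 CPM after KCl). In Pan-TurboID inputs it did not (1.52 to 4.18 and 3.80 to 18.0 CPM).

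The test called the same 8 genes higher in both kinds of pulldown. Of all genes tested, 6.58% changed and 3.3% were higher in TurboID-PSD95 pulldowns, and 5.03% changed and 1.88% were higher in Pan-TurboID pulldowns. In TurboID-PSD95 pulldowns the log2 changes of Ier2, Gadd45g, Btg2, Gadd45b and Klf4 were between 2.61 and 3.17, that of Trib1 was 2.16 ± 0.29 and that of Ier5 was 0.84 ± 0.24 (FDR 0.031). The call on Ier5 is the least stable of these, since it was lost without replicate 1, without replicate 3 and when the fit held the compared groups alone (FDR 0.085, 0.53 and 0.23). In Pan-TurboID pulldowns the changes ranged from 1.33 ± 0.24 for Ier5 to 3.29 ± 0.27 for Ier2. Without replicate 3, Ier5, Klf4 and Trib1 no longer passed there (FDR 0.12, 0.22 and 0.31), and Klf4 and Ier5 did not pass without replicate 2 (FDR 0.068 and 0.056). In TurboID-PSD95 pulldowns Klf4 was lost without replicate 2 and without replicate 3 (FDR 0.24 and 0.16), and Btg2 without replicate 2 (FDR 0.14). In the same TurboID-PSD95 pulldowns summed neuron markers fell without overlap, from 6996 to 7642 CPM at rest to 5811 to 6358 CPM after KCl, and their part in these responses was not tested.

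Nfil3 had 116, 109 and 113 CPM in resting TurboID-PSD95 pulldowns and 105, 248 and 147 CPM after KCl, a log2 change of 0.59 ± 0.24 (FDR 0.14). In Pan-TurboID pulldowns its change was −0.01 ± 0.23 (FDR 0.99). Per1 had changes of 0.03 ± 0.20 and 0.21 ± 0.20 in TurboID-PSD95 and Pan-TurboID pulldowns (FDR 0.96 and 0.63). For both genes the resting and depolarized values overlapped.

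The KCl response did not pass a test of the difference between the ligases for any of the 10 genes, nor for any of the 13003 genes (edgeR FDR 1.0). At an unadjusted p under 0.05, 0 of the 10 genes and 241 of all genes passed in edgeR, and DESeq2 called 0 genes and had 1 of the 10 at an unadjusted p under 0.05. The intervals of the differences were wide. For Trib1 the TurboID-PSD95 response minus the Pan-TurboID response was 0.79 ± 0.39 on the log2 scale, for Nfil3 0.60 ± 0.33 and for Npas4 −0.50 ± 0.40.

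Compared per kilobase of CDS, the order of the levels changed with KCl. In resting inputs (mean of 6 libraries) Nfil3 was highest at 134 ± 9.75 CPM per kb (SD), followed by Btg2 at 84.7 ± 15.6 and Gadd45g at 66.8 ± 6.69, with Npas4 at 25.1 ± 3.94 and Klf4 lowest at 1.27 ± 0.82. Nfil3 and Btg2 were separated by more than their spread, while Ier5 (55.1 ± 4.63) and Ier2 (54.7 ± 9.08) were not. In depolarized inputs Gadd45g was highest at 404 ± 88.2 CPM per kb, followed by Btg2 at 326 ± 102 and Ier2 at 320.2 ± 64.0, which do not differ beyond their spread. Npas4 (143 ± 33.7) and Nfil3 (141 ± 37.4) then stood side by side.

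**Figure D2:**
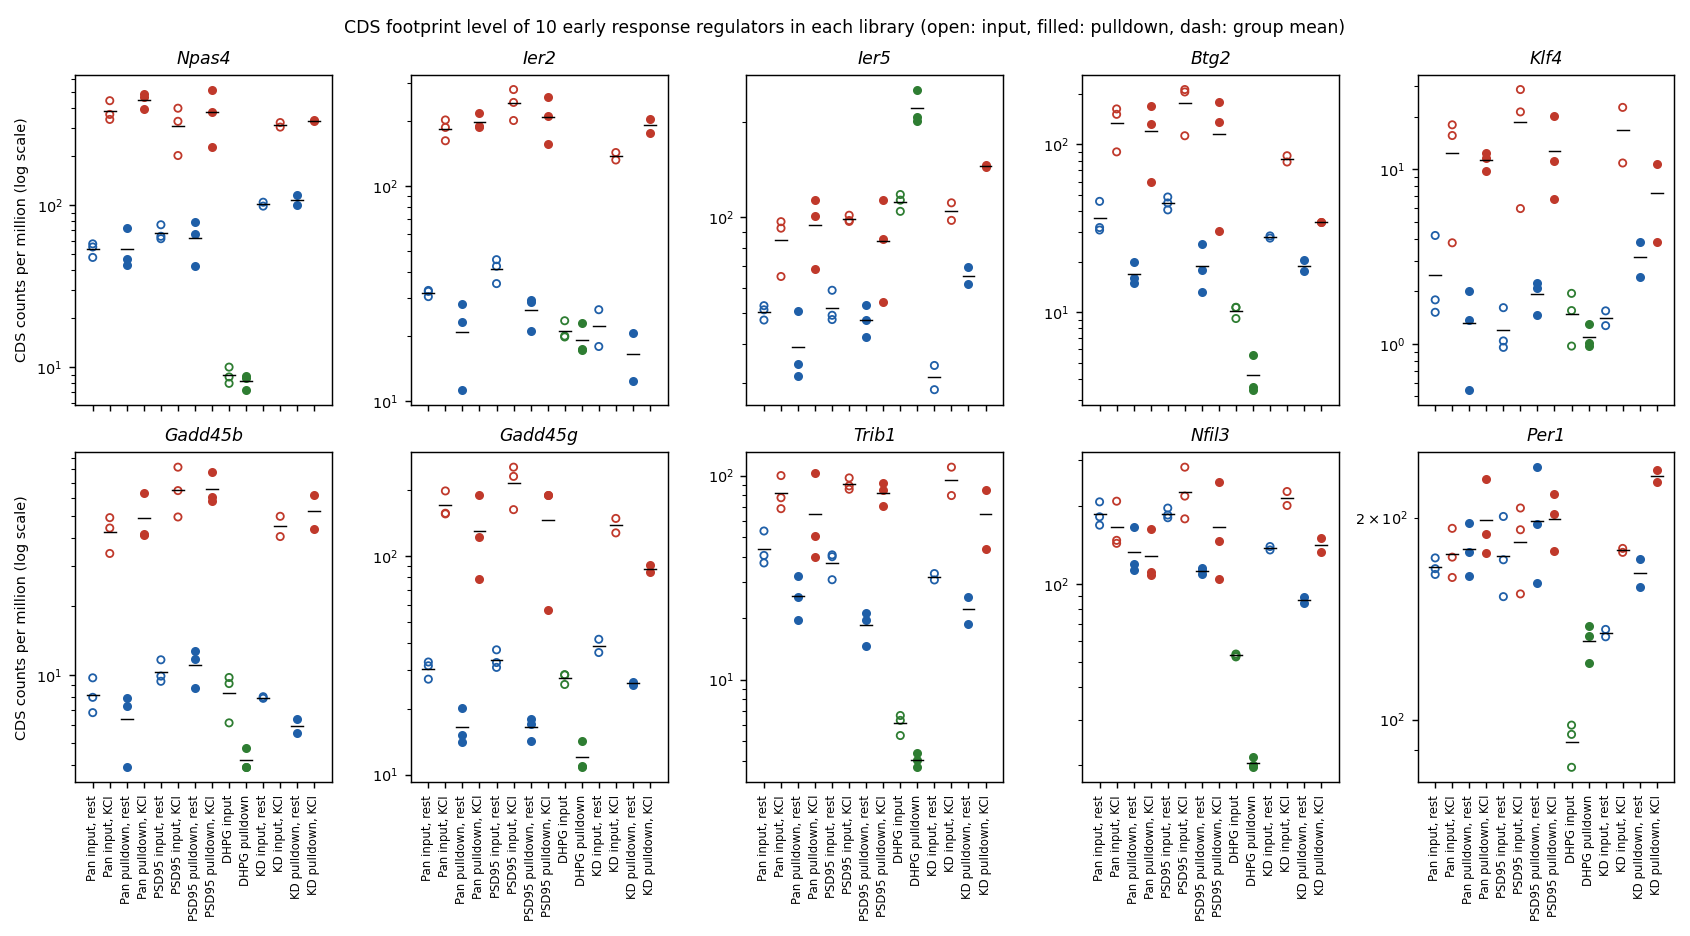
CDS level of each of the 10 genes in all 38 libraries, as CPM on a log axis, by group; each point is a library (open for inputs, filled for pulldowns) and dashes are group means. In the KCl and knockdown (KD) experiments the group means of the 8 responding genes are higher in each depolarized group than in the resting group of the same experiment, ligase and fraction. Ier5 is highest in the DHPG pulldowns and Npas4 is lowest in the DHPG groups.

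Over the 14 groups the ratio of the highest to the lowest group mean was 54.5 for Npas4, 42.1 for Btg2, 23.4 for Trib1, 18.1 for Gadd45g, 17.1 for Klf4, 15.5 for Gadd45b, 14.6 for Ier2, 11.1 for Nfil3, 7.02 for Ier5 and 2.49 for Per1. The 14 group means of log2(CPM + 0.5) were correlated for 11953 genes with a mean of at least 5 CPM in a group. With the genes described here left aside, the best correlated with Npas4 were Nr4a1 (Pearson r 0.977), Dusp1 (0.948), Golm1 (0.947), Fos (0.938) and Tbc1d15 (0.937). Trib1, which is among the genes left aside, also had 0.938 with Npas4. Again outside the genes described here, the closest gene to Ier2 was Fosb (0.965), to Btg2 Fos (0.971) and to Klf4 Egr2 (0.957). For Gadd45b it was Tiparp (0.971), for Gadd45g Egr1 (0.973) and for Trib1 Ccn1 (0.970). Ier2 and Gadd45b correlated more closely with each other (0.984). Ier5 was closest to Kif26a (0.919), Nfil3 to Nmu (0.978) and Per1 to Fcho2 (0.921). The 14 means share their experiments and libraries, so these correlations are descriptions.

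A further list of 49 early response genes was read beside the 10. In inputs 27 of its 47 tested genes rose and 1 fell (Inhba, −1.53 ± 0.34), where 15.4% of all genes changed and 6.33% were higher, with a median log2 change of 0.85, against −0.01 for all genes. Egr2 (4.57 ± 0.26), Arc (3.48 ± 0.20) and Egr1 (3.58 ± 0.25) had its smallest p values. In TurboID-PSD95 pulldowns 27 rose and 0 fell, where 6.58% of all genes changed and 3.3% were higher, and in Pan-TurboID pulldowns 22 rose and 1 fell, where 5.03% changed and 1.88% were higher. Of 9 bHLH-PAS relatives of Npas4 tested in inputs, against the 15.4% of all genes that changed, Ahr (−0.73 ± 0.21, FDR 0.018) and Npas2 (FDR 0.026) fell and 7 did not pass, with a median log2 change of −0.24. None of the 3 PAR bZIP factors, which share target sites with Nfil3, passed.

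Npas4 did not differ past the test between pulldown and input in any of 7 comparisons, resting or activated, with log2 differences from 0.07 ± 0.28 to 0.28 ± 0.28. With the trend of the difference on CDS length removed, 6 of the 7 estimates were below 0, from −0.38 for DHPG (FDR 0.056) to −0.058 for resting knockdown neurons, that of depolarized Pan-TurboID pulldowns was 0.026, and none passed. These comparisons ask whether a gene's footprints make up more of the captured ribosomes than of all ribosomes. In resting TurboID-PSD95 pulldowns 31.1% of all genes differed from the inputs and 16.4% were lower, and 4 of the 10 differed, all lower. Btg2 had 17.8, 13.2 and 25.4 CPM in those pulldowns against 30.9 to 48.6 in the 6 inputs (−1.11 ± 0.38, FDR 0.031), with every pulldown below every input. Gadd45g had 14.3, 18.0 and 17.1 CPM against 27.3 to 37.2 (−0.94 ± 0.29, FDR 0.017), Trib1 had 19.6, 21.3 and 14.7 CPM against 30.9 to 53.5 (−1.08 ± 0.25, FDR 0.0034), and Nfil3 had 116, 109 and 113 CPM against 168 to 207 (−0.70 ± 0.21, FDR 0.014). No pulldown of these genes overlapped the inputs, and how many of all genes separate in this way was not counted. These calls depended on the replicates and on CDS length: without replicate 3 none of the 10 passed, without replicate 2 only Trib1 did, Btg2 missed the threshold without the low-count filter (FDR 0.067), and with the trend of the difference on CDS length removed Btg2 (−0.25, FDR 0.56) and Gadd45g (−0.12, FDR 0.74) no longer passed, while Gadd45b went from 0.28 (FDR 0.40) to 1.12 (FDR 0.0041) and was higher. Summed endothelial and fibroblast markers were also lower in those pulldowns (128 to 244 CPM) than in the resting inputs (266 to 480 CPM), as were summed neuron markers (6996 to 7642 against 8233 to 9098 CPM). The part of these markers in the differences was not tested.

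In depolarized TurboID-PSD95 pulldowns, where 18.0% of all genes differed from inputs, none of the 10 passed in edgeR or in DESeq2 (0 of the 10 and 4422 of 13003 genes at an unadjusted p under 0.05), and the log2 differences ran from −0.40 for Btg2 to 0.33 for Gadd45b, which passed with the length trend removed (1.10, FDR 0.0046). The change of the difference with KCl did not pass for any gene, members included (1 of the 10 and 342 of 13003 genes at an unadjusted p under 0.05, the 1 being Trib1 with 1.03 ± 0.34). With Pan-TurboID at rest, where 9.54% of all genes differed, none of the 10 passed. At an unadjusted p under 0.05 were 4 of the 10 and 3811 of 13003 genes, and DESeq2 called 2 of the 10 and 2103 genes. With the replicate number as a block 2414 genes passed, among them Btg2 (−1.04, FDR 0.024), Gadd45g (−0.90, FDR 0.020) and Trib1 (−0.74, FDR 0.040). After KCl with Pan-TurboID, where 8.75% of all genes differed, none passed in edgeR or DESeq2 (0 of the 10 and 3814 genes at an unadjusted p under 0.05), while over all genes DESeq2 called 2184 and the block 2430, against 1138.

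In the DHPG experiment 79.7% of all genes differed between pulldown and input, and 6 of the 10 did. Ier5 had 113, 118 and 104 CPM in inputs and 207, 201 and 252 CPM in pulldowns (1.19 ± 0.08, FDR 3.0e-10). Per1 had 95.1, 84.9 and 98.2 CPM in inputs and 133, 122 and 138 CPM in pulldowns (0.71 ± 0.08, FDR 1.2e-07). Both genes were higher in every pulldown than in every input, and how many of all genes separate in this way was not counted. Nfil3 had 53.6, 52.9 and 52.3 CPM in inputs and 19.6, 19.9 and 21.4 CPM in pulldowns (−1.17 ± 0.10, FDR 2.5e-09). Btg2 (−1.03 ± 0.21), Gadd45g (−0.98 ± 0.13) and Gadd45b (−0.79 ± 0.22) were also lower in pulldowns. Summed markers differed between the same inputs and pulldowns without overlap. Neuron markers had 10074 to 10265 CPM in inputs and 8003 to 8079 in pulldowns, oligodendrocyte markers 60.7 to 68.2 and 31.9 to 38.5, endothelial and fibroblast markers 42.8 to 44.9 and 31.0 to 33.9, and astrocyte markers 226 to 239 and 254 to 269. Their part in these differences was not tested.

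Those differences moved with CDS length. Per1 has the longest CDS of the 10 genes (3876 nt), and Btg2, Gadd45g and Gadd45b have the shortest (477, 480 and 483 nt). With the length trend removed, the DHPG differences of Ier5 (1.57), Ier2 (0.90) and Nfil3 (−1.28) passed, while those of Btg2 (0.18), Gadd45b (0.41), Gadd45g (0.23) and Per1 (−0.06) changed sign and did not pass. Over all genes 8217 of 12257 passed in that setting.

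**Figure D3:**
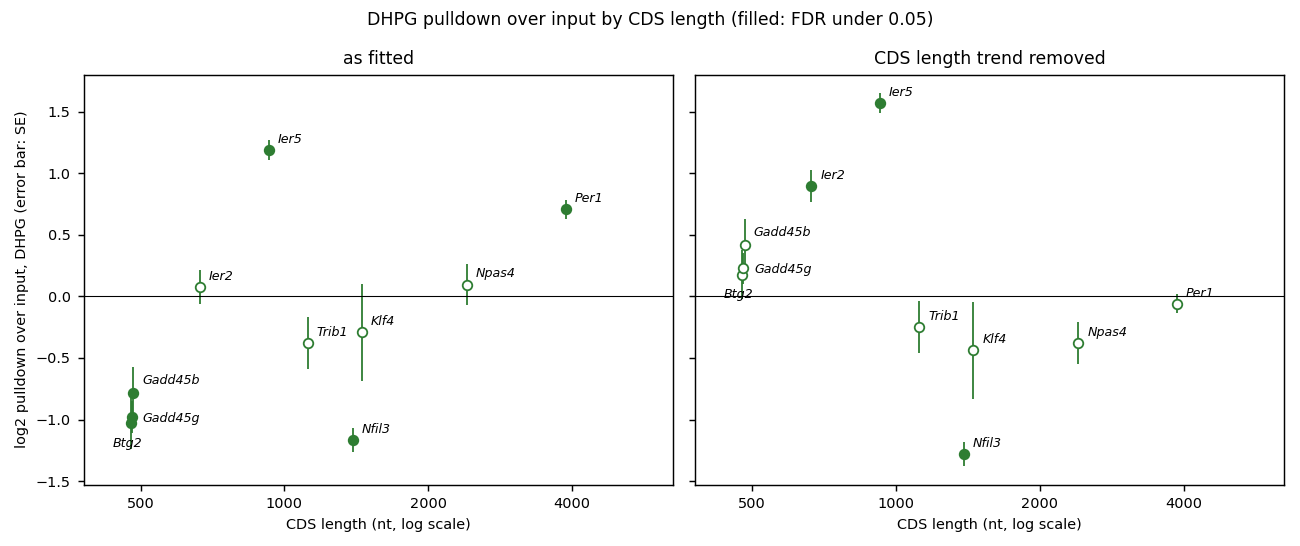
DHPG pulldown over input as log2 difference of CDS footprints against CDS length (nt, log axis) for the 10 genes, as fitted (left) and with the CDS length trend removed (right); points are estimates with standard errors, filled where they passed the test. Btg2, Gadd45b and Gadd45g stand below 0 at the short end on the left and above 0 on the right, Per1 at the long end moves from 0.71 to −0.06, and Ier5 is highest in both.

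In the knockdown experiment Ier5 was higher and Nfil3 lower in pulldowns at rest and after KCl, as in the DHPG experiment. At rest 45.5% of all genes differed, and 4 of the 10 did. Ier5 had 28.6 and 34.1 CPM in inputs and 61.4 and 69.6 CPM in pulldowns (1.16 ± 0.17, FDR 2.9e-06), Per1 was higher (0.41 ± 0.11, FDR 0.0045), and Nfil3 (−0.55 ± 0.13, FDR 0.0010) and Gadd45g (−0.47 ± 0.19, FDR 0.044) were lower. The Gadd45g call was lost with the replicate block, RLE size factors and DESeq2 (FDR 0.052, 0.061 and 0.093) and without any 1 of the 4 libraries (FDR 0.068 to 0.29), and that of Per1 was lost without the input of replicate 2 (FDR 0.065). After KCl 48.8% of all genes differed, and 6 of the 10 did: Ier2 (0.57 ± 0.17), Ier5 (0.57 ± 0.16) and Per1 (0.47 ± 0.11) were higher, and Btg2 (−1.16 ± 0.22), Gadd45g (−0.56 ± 0.17) and Nfil3 (−0.50 ± 0.13) were lower. Without the input of replicate 2 the calls on Ier2 and Ier5 were lost (FDR 0.089 and 0.056), without that of replicate 1 the call on Gadd45g (FDR 0.11), and without the pulldown of replicate 2 that on Ier2 (FDR 0.067), where Klf4 and Trib1 passed as lower (FDR 0.036 and 0.0025). With the length trend removed, 4043 of all 12223 genes passed at rest and 4297 after KCl. Gadd45g then turned to 0.48 at rest (FDR 0.054) and to 0.58 after KCl, where it passed as higher (FDR 0.0084). Gadd45b also became higher after KCl (0.33 as fitted, 1.46 without the trend, FDR 6.7e-05). Per1 turned to −0.17 and −0.19 and Btg2 was −0.013 after KCl, and neither passed. Ier5 and Nfil3 kept their sign and passed in both. Summed markers of 3 lists were lower in the same pulldowns than in the inputs, without overlap. At rest neuron markers had 9058 to 9294 CPM in inputs and 6792 to 6952 in pulldowns, oligodendrocyte markers 192 to 200.2 and 103.3 to 132, and endothelial and fibroblast markers 235 to 239.7 and 98.5 to 118. After KCl the values were 7179 to 7319 and 4994 to 5035, 193 to 219 and 88.4 to 113, and 370.3 to 376 and 132.9 to 133 CPM. Their part in these differences was not tested.

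DHPG gave a different picture from KCl against the resting TurboID-PSD95 neurons, within the limit that the experiments were separate. Of all genes, 32.8% differed in inputs and 16.5% were lower, and 7 of the 10 differed, 6 of them lower. Npas4 had 10.0, 8.70 and 7.94 CPM in DHPG inputs against 64.2, 62.1 and 75.7 CPM at rest (−2.81 ± 0.22, FDR 3.3e-07). Trib1 (−2.50 ± 0.22), Btg2 (−2.03 ± 0.23), Nfil3 (−1.72 ± 0.10), Ier2 (−0.84 ± 0.19) and Per1 (−0.82 ± 0.15) were also lower. Ier5 was the exception, with 113, 118 and 104 CPM against 58.8, 49.1 and 47.6 CPM (1.20 ± 0.13, FDR 6.7e-06). In pulldowns 47.7% of all genes differed and 26.0% were lower, and 6 of the 10 differed. Ier5 rose from 47.3, 53.1 and 42.0 CPM to 207, 201 and 252 CPM (2.44 ± 0.14, FDR 3.3e-09), and Npas4 (−2.66 ± 0.22), Nfil3 (−2.23 ± 0.11), Trib1 (−1.98 ± 0.22), Btg2 (−1.84 ± 0.25) and Gadd45b (−1.14 ± 0.27) were lower. On the list of 49 early response genes, 5 of 47 were higher and 27 lower in DHPG inputs, with a median of −1.0 against −0.02 for all genes. Markers of other cell types were lower in the same libraries without overlap. In DHPG inputs and resting TurboID-PSD95 inputs the summed astrocyte markers had 226 to 239 and 564 to 1139 CPM, oligodendrocyte markers 60.7 to 68.2 and 257 to 575 CPM, and endothelial and fibroblast markers 42.8 to 44.9 and 380 to 480 CPM, and 6 of 7, 5 of 7 and 3 of 5 tested genes of these lists were lower. The pulldowns differed in the same way (254 to 269 against 700 to 1511, 31.9 to 38.5 against 127 to 391, and 31.0 to 33.9 against 128 to 244 CPM). The neuron markers had 10074 to 10265 CPM in DHPG inputs and 8233 to 9098 CPM in resting inputs, and 8003 to 8079 CPM in DHPG pulldowns and 6996 to 7642 CPM in resting pulldowns, higher with DHPG without overlap in both. Silencing by tetrodotoxin and DL-AP5 preceded DHPG. The part of the cell makeup and of silencing in these differences was not tested, and fewer cells of a type and less RNA per cell cannot be told apart here.

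With eIF4G2 knocked down, KCl raised all 10 genes in inputs, Nfil3 and Per1 included, where 19.3% of all genes changed and 8.91% were higher. Npas4 had 104 and 98.6 CPM in resting inputs and 303 and 324 CPM in depolarized inputs (1.64 ± 0.11, FDR 4.1e-11). Nfil3 had 139 and 135 CPM at rest and 227 and 201 CPM after KCl (0.66 ± 0.12, FDR 0.00026). Per1 had 136 and 133 CPM at rest and 179.9 and 178 CPM after KCl (0.42 ± 0.11, FDR 0.0080). For these 3 genes no depolarized input overlapped a resting one, though Per1 missed the threshold when a library was left out in 3 of 4 cases (FDR 0.068 to 0.12). How many of all genes separate in this way with 2 libraries a group was not counted. Over all genes 2353 changed, and 1178 to 1356 did without any 1 of the 4 inputs. In pulldowns, where 22.2% of all genes changed and 10.2% were higher, 9 rose, and Klf4 (1.24 ± 0.69, FDR 0.21) did not pass. Markers moved with KCl in the same libraries without overlap. From rest to KCl in inputs, summed neuron markers went from 9058 to 9294 CPM down to 7179 to 7319, astrocyte markers from 640.0 to 663 up to 788 to 844, and endothelial and fibroblast markers from 235 to 239.7 up to 370.3 to 376. In pulldowns neuron markers were at 6792 to 6952 CPM and then 4994 to 5035, astrocyte markers at 556 to 685 and then 784 to 984, endothelial and fibroblast markers at 98.5 to 118 and then 132.9 to 133, and microglia markers at 10.2 to 13.5 and then 17.2 to 19.7. Their part in these responses was not tested.

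These KCl responses did not differ past the test from those without knockdown for any of the 10 genes. In inputs 1 of 13180 genes passed the test of the difference, or 0.00759%, and in pulldowns 59 did, or 0.448% (0 to 1 and 27 to 143 with 1 library left out). For Nfil3 the input response with knockdown minus that without was 0.37 ± 0.33 and for Per1 0.35 ± 0.29 (both FDR 1.0), so a larger response with knockdown was not shown for either gene. Of the 10 genes, 1 in inputs and 3 in pulldowns were at an unadjusted p under 0.05, as were 367 and 1249 of all 13180 genes. DESeq2 called 0 of the 10 in both, and 1 and 139 of all genes.

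Knockdown libraries set directly beside the other TurboID-PSD95 libraries differed in 18.9% of genes in depolarized pulldowns, among them Ier5 (0.84 ± 0.24, FDR 0.019) and Btg2 (−1.67 ± 0.44, FDR 0.014). Btg2 had 34.4 and 34.3 CPM in the knockdown pulldowns and 30.6, 179 and 136 CPM in the others, so the replicate 1 pulldown of the KCl experiment lay below both knockdown values. Both calls were lost without replicate 2 of the KCl experiment's pulldowns and without either knockdown pulldown (FDR 0.060 to 0.11). Over all genes the count of 2490 was 1530 without that replicate 2, 836 and 892 without a knockdown pulldown, and at most 3530 without any other library. In resting inputs, depolarized inputs and resting pulldowns, where 3.89%, 5.29% and 9.14% of genes differed, none of the 10 passed in edgeR, and DESeq2 called 1 of the 10 in each and 893, 1184 and 1577 of all genes. At an unadjusted p under 0.05 were 3, 2 and 3 of the 10, and 2272, 2743 and 3103 of all 13180 genes. The called counts of 513, 697 and 1205 genes fell to 58, to 88 and 105, and to 466 and 386 without a knockdown library. Without replicate 2 of the KCl experiment they were 218, 370 and 623, and without replicate 3 the first was 270. Summed microglia markers were higher with knockdown (10.2 to 25.7 CPM) than in the other TurboID-PSD95 libraries (0 to 5.74 CPM). Other lists differed without overlap in some of the comparisons. In resting inputs oligodendrocyte markers (192 to 200.2 against 257 to 575 CPM) and endothelial and fibroblast markers (235 to 239.7 against 380 to 480 CPM) were lower with knockdown. In depolarized inputs endothelial and fibroblast markers (370.3 to 376 against 124 to 332 CPM) and astrocyte markers (788 to 844 against 640.0 to 667 CPM) were higher. In resting pulldowns neuron markers (6792 to 6952 against 6996 to 7642 CPM), astrocyte markers (556 to 685 against 700.0 to 1511 CPM) and endothelial and fibroblast markers (98.5 to 118 against 128 to 244 CPM) were lower. In depolarized pulldowns neuron markers were lower (4994 to 5035 against 5811 to 6358 CPM). The part of these markers in the differences was not tested.

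The 5′ UTR carried a large part of the footprints of several of these genes. The start codon lies at the boundary, and because a footprint was counted at its 5′ end with an offset of 0, ribosomes on the start codon were counted in the 5′ UTR. In resting inputs the 5′ UTR share, the percentage of 5′ UTR and CDS footprints that fell in the 5′ UTR, was 66.2 ± 3.80% for Trib1, 64.7 ± 3.94% for Gadd45b, 48.1 ± 3.11% for Gadd45g and 44.4 ± 7.29% for Npas4 (SD, n = 6), and between 16.2 ± 2.15% (Per1) and 35.5 ± 24.0% (Klf4) for the others. Over all genes the median was 21.9% over the 12 inputs. The sequences around the annotated start codons of the 4 genes with the highest shares are shown because a footprint that begins up to a few bases before the capitals, which mark the ATG, is counted upstream (GRCm38, coding strand, 5′ to 3′).
Trib1, chr15:59649148-59649177, plus strand: ccggccagggccgcgATGcgggtcggtccc
Gadd45b, chr10:80930301-80930330, plus strand: gagtgtgactgcatcATGaccctggaagag
Gadd45g, chr13:51846765-51846794, plus strand: ttcgtggatcgcacaATGactctggaagaa
Npas4, chr19:4989802-4989831, minus strand: ccacagccggcagtcATGtaccgatccacc
The 3 genes with the highest shares have no upstream ATG in their annotated 5′ UTR (813, 243 and 102 nt). Ier2, Ier5 and Btg2 have none either.

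Upstream ATG codons were found in Npas4 (4), Nfil3 (3), Per1 (2) and Klf4 (1). The longest reading frame that they open is that of Npas4 at position −448 from the CDS start, 78 codons long, and the Per1 codon at −11 opens a short frame of 4 codons that overlaps the CDS start out of frame. These 2 windows are shown with the upstream ATG in capitals.
Npas4, chr19:4990247-4990276, minus strand: taatagaatgtaATGgaaaacctgggtccc
Per1, chr11:69100619-69100648, plus strand: gtcctccactgtATGgcccagacatgagtg
An upstream ATG is a sequence match and does not show that a ribosome starts there. The 4 codons of Npas4 also depend on the annotation. The one nearest the CDS, at −325, overlaps a TGACG match that lies at −169 from the RefSeq transcription start used for the promoters below. By that start all 4 codons of Npas4, the frame of 78 codons included, lie upstream of the mRNA.

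Footprints in the 5′ UTR rose with KCl for 5 of the 10 genes in inputs, against 0.442% of the 10175 genes tested. They were Klf4 (4.02 ± 0.55, FDR 4.8e-07), Ier2 (2.49 ± 0.40), Gadd45b (2.46 ± 0.38), Gadd45g (2.38 ± 0.35) and Npas4 (1.48 ± 0.35, FDR 0.020). Gadd45g had 25.8 to 34.1 footprints in its 5′ UTR per 1000000 CDS footprints in resting inputs and 120 to 218 in depolarized inputs, without overlap. With the replicate block the count was 8 of the 10, and 143 of all genes, with Btg2 (1.37), Per1 (1.05) and Trib1 (0.99) added. In TurboID-PSD95 pulldowns 4 of the 10 rose (Ier2, Klf4, Gadd45b and Gadd45g), against 0.275% of genes, and 7 of the 10 and 212 of all genes changed with the block. In Pan-TurboID pulldowns 3 rose (Klf4, Gadd45b and Gadd45g), against 0.128%, and 6 of the 10 and 46 of all genes changed with the block. Without replicate 3 the counts among the 10 were 1, 0 and 0 in inputs, TurboID-PSD95 pulldowns and Pan-TurboID pulldowns, and those over all genes, 45, 28 and 13 with every library, were 8, 0 and 1. The median log2 change of 5′ UTR footprints over all 10175 genes was above 0 as well. It was 0.17 in inputs, 0.65 in TurboID-PSD95 pulldowns and 0.28 in Pan-TurboID pulldowns.

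For Npas4 and Per1 the 5′ UTR share moved in opposite directions with KCl. Over all genes 7316 of 11812 had a higher share after KCl in inputs, with a median difference of 1.27 percentage points. Per1 therefore moved in the direction of most genes and Npas4 against it. The Npas4 share was 37.0 to 54.6% in the 6 resting inputs (mean 44.4 ± 7.29%) and 19.6 to 35.3% in the 6 depolarized inputs (28.5 ± 5.42%), a difference of −15.8 percentage points. The Per1 share was 14.03 to 20.0% at rest (16.2 ± 2.15%) and 22.5 to 29.9% after KCl (26.8 ± 2.85%), a difference of 10.7 points. Neither gene's ranges overlapped. Both had an exact two-sided permutation p of 0.005, the smallest that the 400 arrangements allow, and an adjusted p of 0.12 over 11812 genes. No gene of the 11812 passed after adjustment (0%), and 1789 had an unadjusted p under 0.05. Permuted within the replicate number, both had p 0.031, the smallest of 64 arrangements, and an adjusted p of 0.26.

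In pulldowns the Npas4 share went from 24.0 ± 4.38% to 14.2 ± 5.98% (exact permutation p 0.010, or 0.0625 within the replicate number) and the Per1 share from 5.71 ± 2.12% to 9.48 ± 5.00% (p 0.12). The Npas4 and Per1 ranges overlapped there. None of the 11439 genes passed after adjustment (852 at an unadjusted p under 0.05). Of these genes 7743 had a higher share after KCl in pulldowns, with a median difference of 1.43 points. The Klf4 share, which rests on few counts at rest, went from 21.0 ± 10.7% to 44.0 ± 8.72% in pulldowns (p 0.005, adjusted p 0.39; within the replicate number p 0.031). Nfil3 had 29.9 ± 6.53% and 36.9 ± 1.960% in inputs (p 0.035, adjusted p 0.26; within the replicate number p 0.094). The shares of Btg2 (34.3 ± 6.33% and 25.9 ± 2.67%, p 0.020, adjusted p 0.20) and Gadd45g (48.1 ± 3.11% and 44.0 ± 3.05%, p 0.045, adjusted p 0.30) were lower after KCl without passing (p 0.031 and 0.125 within the replicate number), and the shares of Ier2, Ier5, Gadd45b and Trib1 moved by less than their SD in inputs.

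**Figure D4:**
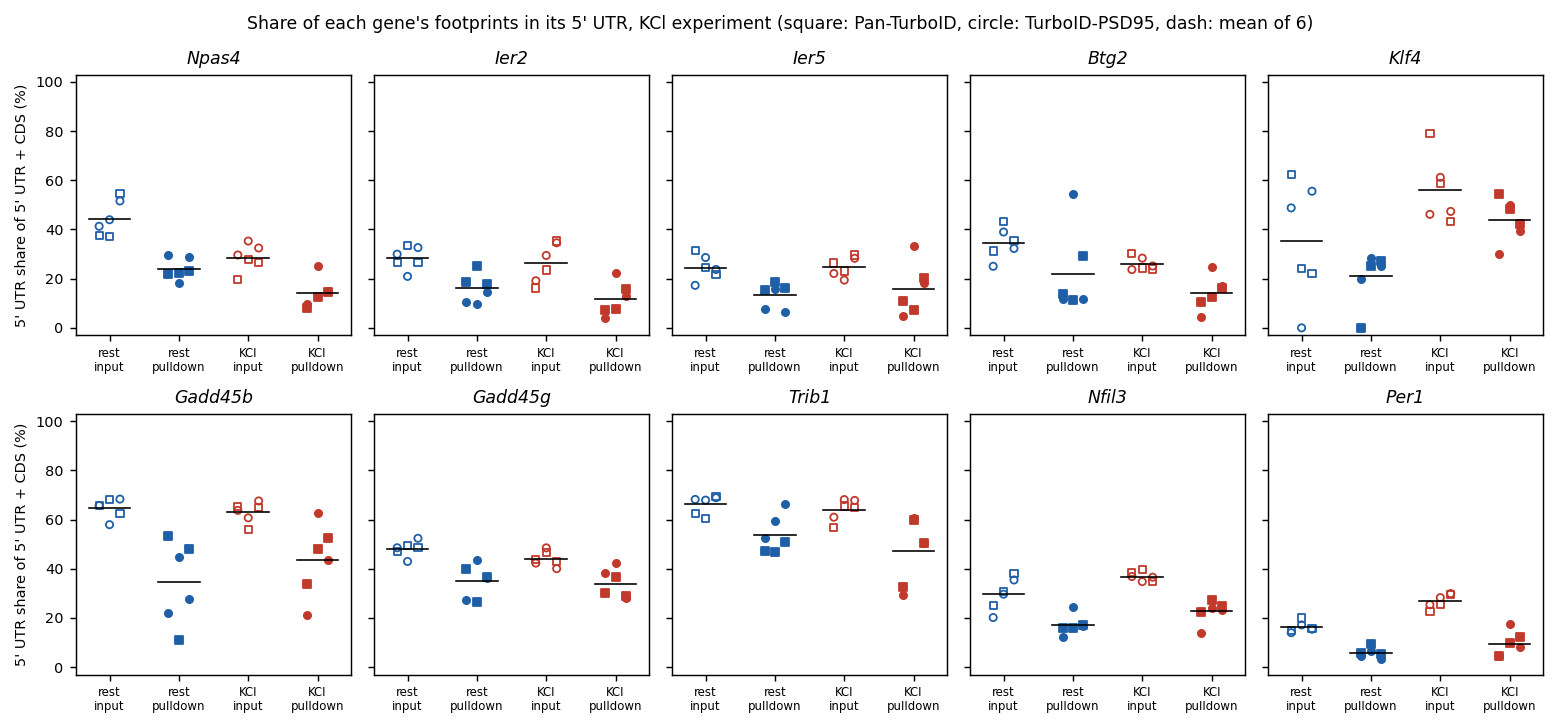
5′ UTR share (percentage of 5′ UTR and CDS footprints) of the 10 genes in the libraries of the KCl experiment, inputs and pulldowns, resting and depolarized; each point is a library (squares for Pan-TurboID, circles for TurboID-PSD95) and dashes are means of 6. Npas4 falls and Per1 rises with KCl in inputs without overlap, and the pulldown means sit below the input means of the same state for all 10 genes.

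The footprints along both mRNAs show where the shares moved, and these segments were chosen after their values were seen and were not tested. For Per1 the last 5′ UTR exon segment (133 nt) had 23.8 to 39.9 CPM in resting inputs and 53.5 to 78.2 CPM in depolarized inputs, without overlap. Its first CDS segment (275 nt) had means of 27.2 ± 7.00 and 43.8 ± 11.2 CPM, with overlap. Of the 21 later CDS segments, 10 had a higher mean and 11 a lower mean after KCl, and the ranges of all 21 overlapped. The longest of them (617 nt) had 12.3 ± 2.51 and 12.4 ± 1.76 CPM. For Npas4 the first CDS segment (175 nt) had 29.1 ± 7.39 and 140.0 ± 50.1 CPM and the longest segment (1430 nt) 17.4 ± 3.35 and 134 ± 51.8 CPM, and all 7 later segments had a higher mean after KCl, 5 of them without overlap.

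Pulldowns held a smaller 5′ UTR share than their own inputs for 9 of the 10 genes, as for 73.2% of all genes (73.3% in either direction), whose median share was 21.9% in inputs and 9.53% in pulldowns. This comparison of 12 pairs was added after the data were seen. The pairs share 3 replicate numbers, and the permutation treated them as independent, so its p values can be too small. With resting pairs alone or depolarized pairs alone, 64 arrangements allow no p below 0.031, and 0 genes passed after adjustment. The share of Npas4 was 36.4 ± 10.3% in inputs and 19.1 ± 7.16% in pulldowns, lower in 12 of 12 pairs (exact sign permutation p 0.00049, the smallest that 4096 arrangements allow, adjusted p 0.0013). Gadd45b had the largest difference of the 10 (63.8 ± 3.96% and 39.1 ± 15.7%, 11 of 12 pairs), and Trib1 kept the highest share in pulldowns (65.1 ± 4.08% and 50.6 ± 10.96%, 12 of 12). Ier2, Nfil3 and Per1 were also lower in 12 of 12 pairs. Klf4 was lower in 9 of 12 (adjusted p 0.076) and did not pass. Btg2 and Ier5 passed (adjusted p 0.011 and 0.0074) but not without replicate 1 or without replicate 3.

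The promoters of 8 of the 10 genes were available from RefSeq (GRCm38.p6) as windows from 250 bases before to 50 after the transcription start, with 2 starts for Per1. They were read for the cyclic AMP response element, the site of the calcium-responsive factor CREB, because 8 of the 10 genes rose together. The full element TGACGTCA was found in Btg2, as in 1.79% of all 32817 promoter windows, and its core TGACG, searched on both strands and contained in the full element, was found in Npas4, Btg2, Klf4, Nfil3 and Per1, as in 20.8% of all windows. The windows of Btg2 and of Npas4 are shown with a match in capitals. The Npas4 window also holds a match on the opposite strand (CGTCA, at −179 from the RefSeq start), which is in lower case. The Npas4 match in capitals lies inside the 5′ UTR of the transcript used for counting, so RefSeq and the counted transcript place the start of this gene differently.
Btg2, chr1:134079303-134079332, minus strand: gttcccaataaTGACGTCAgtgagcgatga
Npas4, chr19:4990123-4990152, minus strand: gacgtcacgggaTGACGtcggaagtctggg
The matched genes include Nfil3 and Per1, which did not pass the test with KCl in the KCl experiment. The E-box CACGTG, bound by clock factors among others, was found in Klf4, Gadd45b, Gadd45g and Per1 (7.15% of all windows), and TATAAA, searched on both strands, in Gadd45b and Gadd45g (13.6%). Both GADD45 promoters are shown around TATAAA.
Gadd45b, chr10:80930033-80930062, plus strand: cccgggaagtcaTATAAAccgctcgcagcg
Gadd45g, chr13:51846636-51846665, plus strand: gccgagcctgtcTATAAAagggctctcccg
The motifs are matches of letters and were not tested against binding data.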

How the data were processed

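Ribosome footprints of 38 libraries were analysed. Per the file headers, the authors counted reads of 25 to 100 nt at their 5′ end with an offset of 0 over exon segments of UCSC knownGene transcripts (mm10) with plastid, and deposited these counts separately for CDS and 5′ UTR (114 files, 3′ UTR counts included, which are not reported here). By their names in the headers, the alignments had ribosomal reads and duplicates removed, which can lower the counts of strongly covered positions. Segments were summed per transcript, Ensembl IDs were matched to symbols (66750 of 67238 transcripts, 99.3%), and the longest coding transcript of each gene was kept. Counts were tested with the quasi-likelihood F test of edgeR 4.0.16 (R 4.3.3, limma 3.58.1; TMM factors, filterByExpr), with Benjamini-Hochberg FDR over all genes tested and a threshold of 0.05. 5′ UTR counts used CDS library sizes. Shares were compared by exact two-sided permutation over libraries, for genes with at least 100 counts. Alternatives were DESeq2 1.42.0, the likelihood ratio test, size factors without TMM, no filter, other transcripts, removal of the CDS length trend, the replicate block and each replicate left out.

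Groups were taken from the ligase, fraction and treatment given per the labels. All 10 genes were named in every comparison; of each gene list, up to 3 genes that rose and 3 that fell, taken by p, were named. The genes and lists were chosen with earlier results of these data known. No gene had a near-identical copy elsewhere (alignment of its longest transcript). Replicates differed by more than counting noise, so none was merged. Their spread, as chi-square per degree of freedom of a pair, was 9.06 to 52.3 in the KCl experiment. It was 2.84 to 4.61 in the knockdown experiment, 2.97 to 9.94 in DHPG pulldowns and 1.50 to 1.98 in DHPG inputs. More genes can pass where replicates spread less, so shares of called genes are not alike between experiments. The p values measure the spread between these samples. Per the study's methods, a pulldown and its input came from the same preparation of ribosomes. The main fits of pulldown over input used group means and left out this pairing. Per the file headers, a replicate number of the KCl experiment marks a shared processing run. Same-numbered libraries deviated together on average (mean correlation 0.13, range −0.25 to 0.61, against −0.06 for other pairs), and the block is printed where it changed a call.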

Additional observations from a re-analysis of the deposited data

Results flagged for a closer look

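Pulldown over input or the KCl response was compared between libraries of the same replicate number, and for 4 genes every such pair of one group went one way and every such pair of another group the opposite way. None of these differences was tested, and the groups themselves can overlap. A group held 3 pairs, or 2 with knockdown, and many groups were compared. How many of all genes show such opposed pairs was not counted, so the pattern may be no more frequent in the 10 than elsewhere. For Ier2 the log2 difference of pulldown over input was higher after KCl with knockdown than at rest with TurboID-PSD95 (by 1.09), at rest with Pan-TurboID (1.16) and at rest with knockdown (0.91). For Klf4, which rests on few counts, it was higher in resting TurboID-PSD95 neurons than with DHPG (0.81) and than after KCl with knockdown (1.74), and higher in resting knockdown neurons than with DHPG (1.20) and than after KCl with knockdown (2.12). For Gadd45b it was higher after KCl with knockdown than with DHPG (1.10) and than at rest with knockdown (0.60), although the depolarized knockdown inputs (49.8 and 40.6 CPM) and pulldowns (61.9 and 43.7 CPM) overlapped. For Nfil3 the KCl response was higher in knockdown pulldowns than in Pan-TurboID pulldowns (0.76), where the groups overlapped (113 to 165 CPM at rest and 109 to 163 CPM after KCl) and the fitted change was −0.01 ± 0.23 (edgeR FDR 0.99).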

How the results depend on the processing

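Of the counts of called genes among the 10, 262 recomputed values stayed within 1.5 times the main count and 34 did not. With the CDS length trend removed the count was 1 in depolarized TurboID-PSD95 pulldowns over inputs (Gadd45b, 1.10), 3 for DHPG and 2 for resting knockdown pulldowns over input. Over all genes the counts in that setting were 1455 of 13003, 8217 of 12257 and 4043 of 12223. DHPG differences then turned to 0.18 for Btg2, 0.41 for Gadd45b, 0.23 for Gadd45g and −0.0603 for Per1, and knockdown differences to 0.48 and 0.58 for Gadd45g, −0.17 and −0.19 for Per1 and 0.507 for Btg2 at rest. The DHPG difference of Ier2, which passed with the trend removed, was −0.130 with CDS totals in place of TMM. In resting Pan-TurboID pulldowns DESeq2 called 2 and the replicate block 3. Knockdown over none in resting inputs, depolarized inputs and resting pulldowns gave 1 each with the likelihood ratio test, DESeq2 or no filter, and the KCl response of pulldowns, knockdown minus none, gave 1 without the filter. For 5′ UTR counts the block gave 8, 7 and 6 in inputs, TurboID-PSD95 and Pan-TurboID pulldowns, and DESeq2 5 in the last. The block changed the other member calls only for Gadd45g in resting knockdown pulldowns. In Pan-TurboID pulldowns the KCl response of Nfil3 turned to 0.00554 with DESeq2 and 0.00628 with RLE size factors. With counts summed over libraries the change of the 5′ UTR share turned to 1.32 percentage points for Ier2 in inputs and to 0.289 for Gadd45g and 2.94 for Trib1 in pulldowns. The cause was not tested for any of these.

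With each replicate left out in turn, the called genes among the 10 numbered 5 to 8 for KCl in Pan-TurboID pulldowns, 0 to 4 and 0 to 1 for resting TurboID-PSD95 and Pan-TurboID pulldowns over inputs, 2 to 3 for resting knockdown pulldowns over input, 4 to 7 after KCl, 0 to 3 for knockdown over none in depolarized pulldowns, 0 to 2 for knockdown minus none in pulldowns, 1 to 6, 0 to 8 and 0 to 7 for 5′ UTR counts in inputs, TurboID-PSD95 and Pan-TurboID pulldowns, and 7 to 10 for the 5′ UTR share of pulldowns against inputs. The KCl response of Per1 ran from −0.0621 to 0.243 in inputs, −0.18 to 0.163 in TurboID-PSD95 and −0.0475 to 0.355 in Pan-TurboID pulldowns, and that of Nfil3 from −0.0995 to 0.0589 in the last. The DHPG difference of Ier2 ran from −0.157 to 0.215. The change of the 5′ UTR share ran from −5.70 to 2.35 points for Ier2 and −2.66 to 3.10 for Ier5 in inputs, and from −0.124 to 18.8 for Gadd45b, −3.67 to 2.50 for Gadd45g and −0.315 to 5.45 for Ier5 in pulldowns. Share tests on 2 replicates cannot go below p 0.0556, the smallest of 36 arrangements.

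The counts of called genes over the whole table moved too. Leaving out a replicate gave 515 to 2098 for KCl in inputs (1996 with all), 92 to 1446 in TurboID-PSD95 (855) and 74 to 712 in Pan-TurboID pulldowns (654), 16 to 3590 and 17 to 2900 for TurboID-PSD95 pulldowns over inputs at rest and after KCl (4048 and 2340), and 0 to 1221 and 0 to 591 with Pan-TurboID (1240 and 1138). Of the settings, removing the length trend gave 2609 and 1455 in TurboID-PSD95 and 443 and 407 in Pan-TurboID pulldowns over inputs, DESeq2 gave 1049 for KCl in Pan-TurboID and 1319 in TurboID-PSD95 pulldowns, and the compared groups alone gave 118 in the last. For 5′ UTR counts (45, 28 and 13 genes in inputs, TurboID-PSD95 and Pan-TurboID pulldowns) the block gave 143, 212 and 46, and leaving out a replicate 8 to 82, 0 to 300 and 1 to 54. Counts limit Klf4 most, with few footprints at rest, and 2 libraries a group limit the knockdown values.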
